A study of Mus musculus with 6 samples.

Results

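The 49 genes described here encode the cytosolic factors that start and extend protein chains, together with their direct inhibitors and modifying enzymes. They were chosen by name as the probe sets whose platform annotation gave a single symbol beginning with Eif and a digit, leaving out the Eif2ak kinases, or with Eef. The rule found 110 probe sets of 22626 tested, covering 49 genes of 12393. They fell into groups of 3 eIF1, 8 eIF2, 11 eIF3, 12 eIF4, 4 eIF5 and eIF6 and 11 elongation factor genes, and the eIF2 group includes the exchange factor eIF2B.

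Regulatory T cells (Tregs) are CD4+ cells that restrain immune responses and depend on the transcription factor Foxp3. RNA from CD4+CD25+ Tregs, enriched on magnetic beads, was hybridised to 6 Affymetrix Mouse430A arrays, 3 of WT C57BL6 mice and 3 of HDAC11-/- Tregs from fl-HDAC11/Foxp3cre mice. In the latter, a Cre recombinase expressed with Foxp3 deletes floxed Hdac11, the gene of a histone and protein deacetylase, so that cells without Foxp3 keep the gene. The mice were on a C57BL/6 background, and the WT arrays are labelled wild type, with neither the floxed allele nor Cre named, so deletion and Cre expression cannot be told apart. The sources used here do not say how many mice gave each RNA, so the p-values reflect the spread among these arrays alone.

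Initiation begins when eIF2 carries the initiator tRNA to the small ribosomal subunit, which eIF1, eIF1A, eIF3 and eIF5 help to load and to scan. The eIF4 factors bind the mRNA cap and unwind the leader, and the 4E-binding proteins (4E-BP) block the cap-binding factor eIF4E until they are phosphorylated downstream of mTOR. In elongation, eEF1A delivers aminoacyl-tRNAs and eEF2 moves the ribosome along the message. T cells raise these steps when they are activated and begin to divide.

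The arrays were alike within each genotype, with correlations over probe sets of at least 0.997 in WT and 0.998 in HDAC11-/-, against 0.985 to 0.988 between genotypes. Hdac11 itself differed by -0.12 on the log2 scale (adjusted p = 0.222 by limma), but the sources used here do not place its probes relative to the deleted exons, and it checks nothing. Among the Treg markers, Il2ra (CD25), Ctla4, Tnfrsf18, Cd4 and Cd3e stood well above the bacterial control probe sets, whereas the brightest Foxp3 probe set did not exceed the highest of them on any array. Of the 7 Treg markers, Ctla4 was higher in HDAC11-/- (0.50, adjusted p = 0.000269). Both Cd4 (-0.32, adjusted p = 0.00121) and Ikzf2 (-0.35, adjusted p = 0.0453) were lower, and the other 4 did not pass. Some cell markers moved with genotype. At an adjusted p under 0.05, 22.9% of all genes were higher and 23.2% lower. With a difference of at least 1.5-fold as well, 3.46% were called higher and 3.72% lower. The proliferation markers were known from earlier results of these data to be higher when they were listed. Of 11 proliferation markers 10 were called higher in HDAC11-/- and 1 lower, and their summed level on the log2 scale was 12.95 to 12.97 in WT and 13.96 to 13.97 in HDAC11-/-. Of 6 dendritic cell markers 5 were lower by the adjusted p, with summed levels of 12.26 to 12.30 and 11.09 to 11.11, and of 5 B cell markers 4 were lower, with 10.10 to 10.18 and 9.47 to 9.51. Of 6 monocyte and macrophage markers 4 were higher, at summed levels of 7.90 to 7.99 and 8.13 to 8.33, but in WT 4 of the 6 did not exceed the highest bacterial control. Of 5 markers of CD8 T and NK cells 1 was higher (Cd8b1, 0.42) and 2 were lower (Klrd1, -0.34, and Ncr1, which was called, -1.04), with summed levels of 10.30 to 10.34 and 10.24 to 10.39. The part of these differences in the results below was not tested, and in such bulk samples fewer cells of a type and less RNA per cell cannot be told apart.

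More of the translation factor genes were higher than lower in HDAC11-/- Tregs, and the differences were small. By its brightest probe set, a gene's log2 level was compared with limma, with p-values adjusted by Benjamini-Hochberg over all 22626 probe sets. Of the 49 genes, 28 were higher with an adjusted p under 0.05, whereas 22.9% of all genes were. Only 3 were lower, against 23.2% of all genes, and 18 did not pass. The median log2 fold change (HDAC11-/- over WT) of the 49 genes was 0.17, with a range from -0.40 to 0.50, and that of all 12393 genes was -0.04. All genes include dim ones. With dim probe sets filtered out, 8720 genes remained, of which 34.4% were higher and 28.7% lower, and their median was 0.02. The members then had 31 higher and 5 lower, and their median stayed at 0.17. By median difference from the WT mean of each gene, the 3 HDAC11-/- arrays stood at 0.18, 0.17 and 0.17 over the members, and at -0.04, -0.03 and -0.03 over all genes.

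No gene met the study's threshold of an adjusted p under 0.05 and a difference of at least 1.5-fold. limma called 0 of 49 genes higher, where it called 3.46% of all genes, and 0 lower, where it called 3.72%. SAM, the method of the study, also called 0 in each direction, and at an unadjusted p under 0.05 limma had 31 higher and 5 lower. The WT and HDAC11-/- arrays did not overlap for 31 genes with HDAC11-/- above (28.2% of all genes) and for 10 with HDAC11-/- below (29.6% of all genes).

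**Figure D1:**
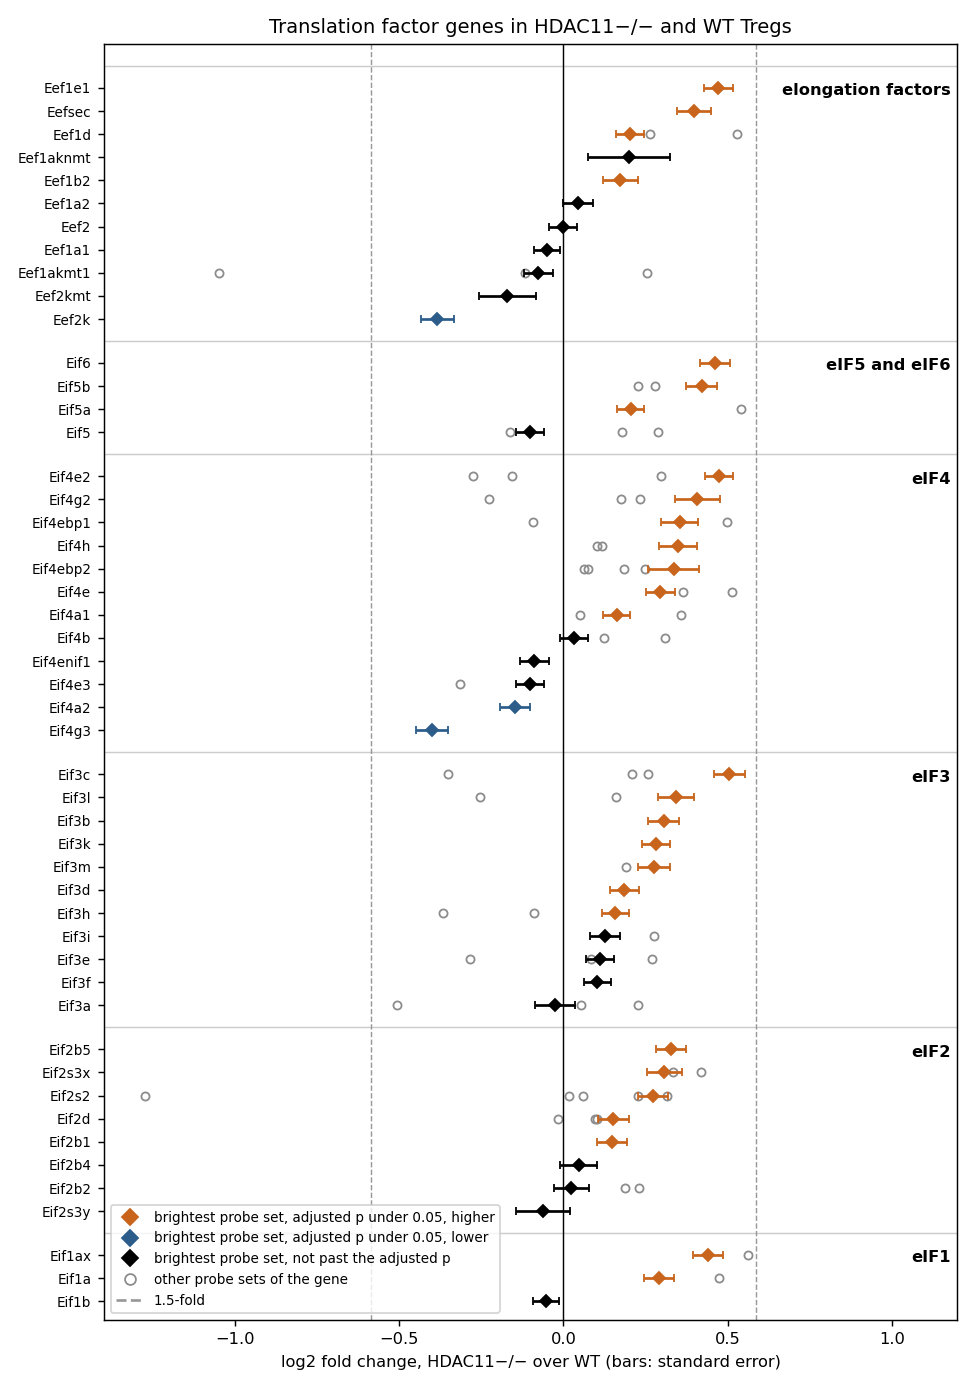
Log2 fold change of each of the 49 genes, HDAC11-/- over WT, by group. Diamonds are the brightest probe set with its standard error, coloured where the adjusted p was under 0.05 (28 higher, 3 lower), and open circles are the other probe sets of the gene. Every diamond lies inside the dashed 1.5-fold lines, and an open circle of Eif2s2 and another of Eef1akmt1 lie beyond them on the left.

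These directions depend on the scale of the arrays. RMA, the normalization of the study, gives all arrays the same overall distribution of values. A set of 15 reference genes that holds no translation factor had a mean log2 fold change of 0.20, with 7 of them higher by the adjusted p and none lower. When the arrays were scaled so that these reference genes did not move on average, the member median became -0.03 and that of all genes -0.24. The members then counted 11 higher and 16 lower, where 10.1% of all genes were higher and 53.6% lower. On the scale of the bacterial control probe sets the member median was 0.20, with 29 higher and 2 lower, where 24% of all genes were higher and 20.1% lower. The mean log2 level of these controls was 3.27 to 3.33, far below the array medians of 6.74 to 6.77. That scale thus rests on probe sets with little signal and not on a known amount of added RNA. The distance of 0.21 between the member median and that of all genes is the same on the 3 scales by construction.

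On all 3 scales, 11 genes passed as higher, namely Eif1ax, Eif2b5, Eif3c, Eif4e2, Eif4ebp1, Eif4g2, Eif4h, Eif5b, Eif6, Eef1e1 and Eefsec. These are all the genes that passed as higher on the reference-gene scale, where the others of the 28 did not. The bacterial controls shifted by only -0.02 (HDAC11-/- minus WT), so their scale is close to the deposited one. Passing on all 3 scales is thus not 3 separate tests. Both Eif4g3 and Eef2k passed as lower on all 3, and no gene passed in opposite directions on different scales. Each verb below refers to the deposited scale unless another is named.

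**Figure D2:**
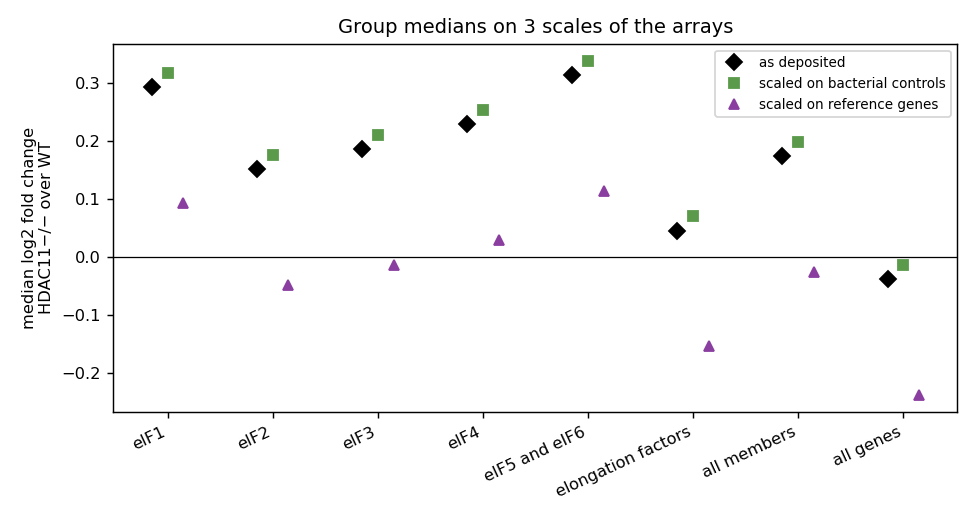
Median log2 fold change (HDAC11-/- over WT) of the genes of each group on the deposited scale and after scaling the arrays on bacterial controls or on 15 reference genes. On the reference-gene scale the medians of all members and all genes are -0.03 and -0.24, and on the deposited scale 0.17 and -0.04.

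The genes that rose were also counted by group. By the adjusted p, 2 of 3 eIF1, 5 of 8 eIF2, 7 of 11 eIF3, 7 of 12 eIF4, 3 of 4 eIF5 and eIF6 and 4 of 11 elongation factor genes were higher. The lower genes were 2 of the eIF4 group and 1 elongation factor gene. Of all genes 22.9% were higher and 23.2% lower, and the same shares stand beside the gene counts by group below. Median log2 fold changes were 0.29 for eIF1, 0.15 for eIF2, 0.19 for eIF3, 0.23 for eIF4, 0.31 for eIF5 and eIF6 and 0.04 for elongation factors. The last group mixes 6 genes named for eEF1 and eEF2 with 5 other Eef genes, such as modifying enzymes. The 6 had 3 higher and 0 lower, with a median of 0.11. The higher ones were the exchange subunits Eef1b2 (0.17) and Eef1d (0.20) and, with the largest value, Eef1e1 (0.47). Despite its name, Eef1e1 is a member of the multi-tRNA synthetase complex and not an exchange subunit. The 5 others had 1 higher and 1 lower, with a median of -0.08. Without HDAC11-/- replicate 2 the elongation factor median was 0.024, and without WT replicate 1 it was 0.030. These are descriptions of groups of unequal size, and the differences between groups were not tested.

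By array, the elongation factor median lay at -0.01, 0.0009 and 0.02 in WT and 0.02, 0.09 and 0.03 in HDAC11-/-, so that the lowest HDAC11-/- array came below the highest WT array. The eIF3 median was 0.03, 0.004 and -0.01 in WT and 0.21, 0.19 and 0.15 in HDAC11-/-, with no overlap. Nor did the genotypes overlap for eIF4, at -0.01, 0.02 and -0.01 against 0.21, 0.22 and 0.23.

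**Figure D3:**
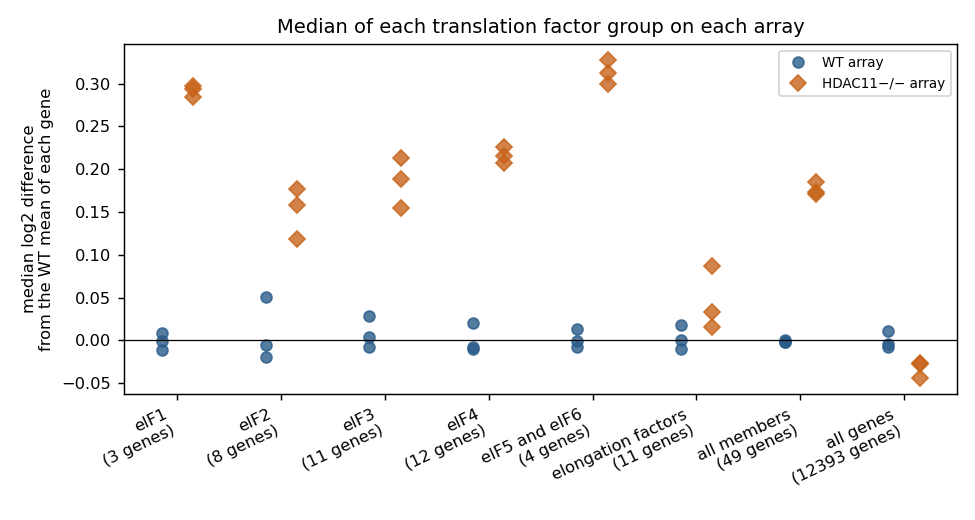
Median over the genes of each group of the log2 difference from the gene's WT mean, for each of 3 WT arrays (circles) and 3 HDAC11-/- arrays (diamonds). In each initiation factor group the diamonds lie above the circles, but they overlap for the 11 elongation factor genes (0.02 to 0.09) and lie below over all genes.

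The promoters of these genes were searched for 2 short motifs. CACGTG is the E-box bound by Myc and other basic helix-loop-helix factors, and Myc was itself called higher in HDAC11-/- (log2 fold change 0.72). The 250 bases before the RefSeq start (build GRCm38.p6) were searched for 39 of the 49 genes. The word is its own reverse complement, so both strands were read at once. It was found in 10 of the 39 genes (25.6%), in 9.19% of all array genes with a promoter and in 6.86% of all RefSeq genes. The motif CCGGAAG, read on both strands as a core of ETS factor sites, was in 9 of 39 (23.1%), 12.9% and 7.83%. Of the 10 genes with CACGTG 5 were higher and 1 was lower by the adjusted p, with a median log2 fold change of 0.18, and of the 29 without it 17 were higher and 2 lower, with a median of 0.17. The counts and medians with and without the word were thus close, and their difference was not tested. A match is a description of the letters and not a site of binding. Matches in Eif4a1, which was also higher, and in another stretch of Eif5a are not printed. The following 40-base stretches show the word, in capitals, in some genes that differed by the adjusted p and in Eef2, which did not, each 5′ to 3′ on the gene's strand.
Eif4e, + strand, chr3:138527023-138527062: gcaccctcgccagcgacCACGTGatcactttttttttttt
Eif4e, + strand, chr3:138527187-138527226: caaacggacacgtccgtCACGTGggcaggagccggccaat
Eif4h, - strand, chr5:134639483-134639522: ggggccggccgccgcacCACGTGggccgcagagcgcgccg
Eif5a, - strand, chr11:69920786-69920825: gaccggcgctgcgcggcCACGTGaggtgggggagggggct
Eif3k, - strand, chr7:28981910-28981949: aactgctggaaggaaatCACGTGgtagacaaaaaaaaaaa
Eef2k, + strand, chr7:120842783-120842822: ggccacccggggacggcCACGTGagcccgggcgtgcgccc
Eef2, + strand, chr10:81176571-81176610: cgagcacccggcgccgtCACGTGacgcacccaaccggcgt
Their first capital lies 228 and 64 bases before an annotated start in Eif4e, 96 in Eif4h, 178 in Eif5a, 44 in Eif3k, 31 in Eef2k and 43 in Eef2.

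In the eIF1 group, both genes of eIF1A, which stabilises the scanning complex, rose. Eif1ax, the X-linked copy, was at 10.22, 10.18 and 10.14 on the log2 scale in WT and at 10.60, 10.61 and 10.65 in HDAC11-/-. Its log2 fold change was 0.44 (SE 0.05, adjusted p = 0.000494), or 1.36-fold. Eif1a, the autosomal copy, had 8.88, 8.88 and 8.97 in WT and 9.20, 9.19 and 9.21 in HDAC11-/-, a difference of 0.29 (SE 0.05, adjusted p = 0.00274). Every HDAC11-/- array lay above every WT array for both. The second probe sets of Eif1ax and Eif1a gave 0.56 and 0.47. The 2 genes are near-identical in their coding parts, so their probe sets may read one another's transcripts. Eif1b, a paralog of the start-codon factor eIF1, was at 10.53, 10.52 and 10.51 against 10.48, 10.47 and 10.46 and did not pass (-0.05, adjusted p = 0.323).

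Of the subunits of eIF2, Eif2s2 (beta) and Eif2s3x (gamma) rose. The brightest Eif2s2 probe set read 11.61, 11.58 and 11.55 in WT and 11.89, 11.85 and 11.81 in HDAC11-/-, a difference of 0.27 (SE 0.05, adjusted p = 0.00351). Eif2s3x, with 11.18, 11.11 and 11.25 against 11.46, 11.51 and 11.50, differed by 0.31 (SE 0.05, adjusted p = 0.00375). Its other probe sets gave 0.33 and 0.42, so that all 3 passed in the same direction.

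Eif2s3y, the Y-linked copy of the gamma subunit, did not pass. Its levels were 9.84, 10.06 and 10.14 in WT and 9.90, 10.00 and 9.97 in HDAC11-/-, with a difference of -0.06 (SE 0.08, adjusted p = 0.575), and the groups overlapped. The Y-linked Kdm5d stood at 8.43 to 8.67 on all 6 arrays (-0.11, adjusted p = 0.185) and Uty at 7.15 to 7.26 in WT and 7.53 to 7.55 in HDAC11-/- (0.35, adjusted p = 0.00167), so RNA of males was present in both genotypes. Xist, expressed from the inactive X of females, was at 5.48 to 5.93 in WT and 5.14 to 5.24 in HDAC11-/- (-0.55, adjusted p = 0.00785), near the highest bacterial control of each array, 5.06 to 5.48. The difference between Eif2s3x and Eif2s3y was not tested.

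The exchange factor eIF2B recharges eIF2 with GTP and is the step blocked when eIF2 is phosphorylated. Of its 4 measured genes 2 were higher. Eif2b5, the catalytic subunit, was at 9.62, 9.72 and 9.68 in WT and at 10.00, 10.00 and 10.01 in HDAC11-/-, 0.33 apart (SE 0.05, adjusted p = 0.00174). Eif2b1 differed by 0.15 (SE 0.05, adjusted p = 0.0359), and this was lost with a replicate block, by SAM and without 5 of the 6 arrays in turn, and turned to -0.05 on the reference-gene scale. Eif2b2 and Eif2b4 had 0.02 and 0.05 by their brightest probe sets, but both dimmer probe sets of Eif2b2 passed as higher, at 0.23 and 0.19.

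The eIF3 complex, a scaffold on the small subunit, had 7 of 11 genes higher and none lower. Eif3c, a core subunit, showed the largest difference by brightest probe set of the 49 genes. It read 11.81, 11.80 and 11.74 in WT and 12.32, 12.30 and 12.25 in HDAC11-/-, which is 0.50 (SE 0.05, adjusted p = 0.000345), or 1.42-fold. Its dimmer probe sets gave 0.26, 0.21 and -0.35, the last with an SE of 0.23 and overlapping groups. That last one fell with replicate number in both genotypes, at 9.22, 8.65 and 8.59 in WT and 8.83, 8.47 and 8.10 in HDAC11-/-. With the mean of its probe sets Eif3c had 0.15 and no longer passed (adjusted p = 0.0928).

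Eif3l, a peripheral subunit that pairs with Eif3k, was at 11.14, 11.00 and 11.10 in WT and 11.48, 11.38 and 11.42 in HDAC11-/- (0.34, SE 0.06, adjusted p = 0.003). Eif3k was at 11.19, 11.17 and 11.20 against 11.49, 11.47 and 11.45 (0.28, SE 0.04, adjusted p = 0.00209). Eif3b, which carries an RNA recognition motif, was at 10.63, 10.60 and 10.54 against 10.90, 10.90 and 10.87 (0.30, SE 0.05, adjusted p = 0.00224). In each of the 3 genes every HDAC11-/- array was above every WT array. A dimmer Eif3l probe set went the other way, at -0.25 (adjusted p = 0.0267), and with the mean of its probe sets Eif3l had 0.08 and no longer passed (adjusted p = 0.279).

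The brightest eIF3 gene on the array, Eif3e, had a difference of 0.11 (SE 0.04, adjusted p = 0.0762), with 13.16, 13.12 and 13.09 against 13.24, 13.25 and 13.22. Its groups did not overlap, it missed the threshold, and on the reference-gene scale it turned to -0.09. Eif3a, the largest subunit, was the only eIF3 gene below 0, at -0.03 (adjusted p = 0.749). Its dimmest probe set was widely spread, at 8.26, 7.51 and 6.92 in WT and 7.58, 7.10 and 6.49 in HDAC11-/-. It fell with replicate number in both genotypes and was lower in HDAC11-/- at each number. Fitted on genotype alone, the difference of -0.51 did not pass (SE 0.39, adjusted p = 0.326 by limma), and that SE includes the fall with replicate number.

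Of the 3 cap-binding genes of the eIF4E family, 2 rose and the other did not pass. Eif4e, the cap-binding protein itself, was at 9.90, 9.93 and 9.91 in WT and 10.17, 10.25 and 10.21 in HDAC11-/-, 0.30 apart (SE 0.04, adjusted p = 0.00226). Its dimmer probe sets gave 0.37 and 0.51, and all 3 passed. Eif4e2 (4EHP), which binds the cap without recruiting eIF4G and is known as a repressor, had the largest difference of the eIF4 group by brightest probe set. It read 9.51, 9.46 and 9.47 against 9.94, 9.97 and 9.95, or 0.47 (SE 0.04, adjusted p = 0.000295), while of its dimmer probe sets 1 gave 0.30 and passed (adjusted p = 0.00191) and 2 gave -0.27 and -0.16 and did not. The mean of its probe sets gave 0.09 (adjusted p = 0.124), and the brightest one without a suffix for shared probes is that at -0.27. Eif4e3 had -0.10 (adjusted p = 0.092).

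By their brightest probe sets, both measured 4E-BP genes rose beside Eif4e. Eif4ebp1 was at 7.44, 7.49 and 7.46 in WT and 7.88, 7.72 and 7.85 in HDAC11-/-, with a difference of 0.35 (SE 0.06, adjusted p = 0.00269). Eif4ebp2 differed by 0.34 (SE 0.08, adjusted p = 0.0124), and on the reference-gene scale it had 0.14 and did not pass (adjusted p = 0.139). Of the 8 probe sets of both genes 4 passed as higher and 4 did not pass, the latter with values from -0.09 to 0.18. The arrays measure the RNA of these inhibitors and not their phosphorylation.

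The scaffold family split. Eif4g3, which bridges the cap-binding protein and the helicase, fell, with 10.73, 10.75 and 10.68 in WT and 10.38, 10.30 and 10.28 in HDAC11-/-, a difference of -0.40 (SE 0.05, adjusted p = 0.000969). Eif4g2 (DAP5), a relative that lacks the eIF4E-binding region, was at 12.44, 12.64 and 12.57 against 12.89, 12.96 and 13.02 and rose by 0.41 (SE 0.07, adjusted p = 0.00336). On the reference-gene scale Eif4g3 reached -0.60 and was called lower, the only gene of the 49 called on any of the scales.

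The helicase paralogs differed in direction too, but less firmly. Eif4a2 was at 12.95, 13.02 and 12.95 in WT and 12.83, 12.82 and 12.83 in HDAC11-/-, a difference of -0.15 (SE 0.04, adjusted p = 0.034). It no longer passed by SAM, with a replicate block, on the bacterial-control scale and without 5 of the 6 arrays in turn. Eif4a1 rose by 0.16 (SE 0.04, adjusted p = 0.0173) by its brightest probe set, and on the reference-gene scale its value was -0.04 (adjusted p = 0.451). Eif4h, which stimulates the helicase, was at 11.60, 11.78 and 11.68 against 12.06, 12.04 and 12.01 (0.35, SE 0.06, adjusted p = 0.00334), while its other probe sets had 0.10 and 0.12 and did not pass.

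**Figure D4:**
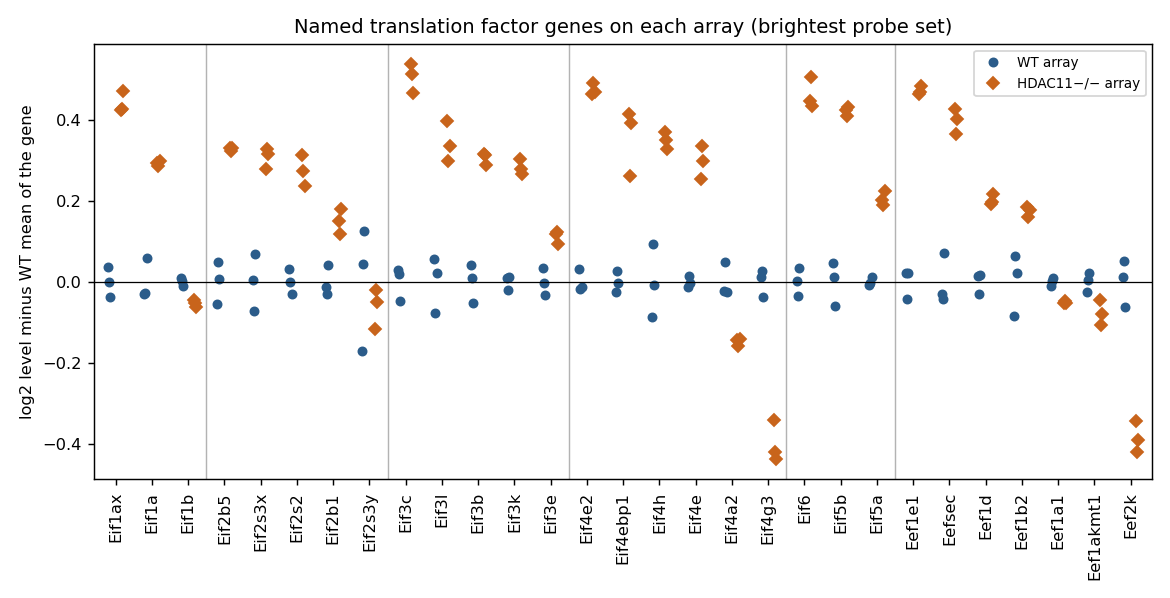
Log2 level minus the WT mean for the brightest probe set of each of the named genes, on 3 WT arrays (circles) and 3 HDAC11-/- arrays (diamonds), with vertical lines between groups. HDAC11-/- arrays stand apart above WT for genes such as Eif3c (0.50) and Eif6 (0.46), apart below for Eif4g3 (-0.40) and Eef2k (-0.38), and among the WT arrays for Eif2s3y.

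Of the 4 eIF5 and eIF6 genes, 3 rose and Eif5 did not pass. Eif6, which keeps the large subunit from joining too early, was at 9.82, 9.79 and 9.86 in WT and 10.27, 10.33 and 10.26 in HDAC11-/-, a difference of 0.46 (SE 0.05, adjusted p = 0.000463). Eif5b, the GTPase that joins the subunits, was at 8.84, 8.80 and 8.73 against 9.21, 9.20 and 9.22 (0.42, SE 0.05, adjusted p = 0.000692). Neither gene overlapped between genotypes. Eif5a, the hypusine-carrying factor that helps the ribosome past difficult peptide bonds, was at 13.34, 13.35 and 13.37 against 13.56, 13.54 and 13.58 (0.20, SE 0.04, adjusted p = 0.00734), and its dimmer probe set gave 0.54. By SAM the brightest one did not pass (q = 0.0627), and on the reference-gene scale it had 0.005 (adjusted p = 0.927). Eif5, which triggers GTP hydrolysis by eIF2, had -0.10 by its brightest probe set (adjusted p = 0.0873) and 0.29 and 0.18 by others that passed.

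Among the core elongation factors, the exchange subunits Eef1b2 and Eef1d passed as higher by limma but not by SAM. The carriers did not pass by either. Eef1a1, which delivers tRNAs, was at 14.45, 14.46 and 14.47 in WT and 14.41, 14.42 and 14.41 in HDAC11-/-, a difference of -0.05 (SE 0.04, adjusted p = 0.348). Eef2, the translocase, was at 13.55, 13.54 and 13.57 against 13.53, 13.56 and 13.57, with a difference of -0.0006 (SE 0.04, adjusted p = 0.992), and its groups overlapped. On the reference-gene scale both passed as lower, at -0.25 (adjusted p = 0.00264) and -0.20 (adjusted p = 0.00771).

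Eef1b2 and Eef1d, subunits of the exchange factor that recharges eEF1A, gave 0.17 (SE 0.05, adjusted p = 0.0353) and 0.20 (SE 0.04, adjusted p = 0.00862). Eef1d was at 12.09, 12.05 and 12.10 against 12.27, 12.27 and 12.30, and all 3 of its probe sets passed as higher. By SAM its brightest one did not pass (q = 0.0666), and on the reference-gene scale it had 0.002 (adjusted p = 0.968). Eef1b2 no longer passed by SAM, with a replicate block or without 5 of the 6 arrays in turn, and turned to -0.03 on the reference-gene scale. Eef1e1, a member of the multi-tRNA synthetase complex, was at 9.93, 9.87 and 9.93 against 10.38, 10.38 and 10.40 (0.47, SE 0.04, adjusted p = 0.000336). Eefsec, which delivers selenocysteine, was at 8.37, 8.36 and 8.48 against 8.83, 8.77 and 8.81 (0.40, SE 0.05, adjusted p = 0.00116).

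The kinase that phosphorylates and slows eEF2, Eef2k, fell. It was at 7.35, 7.39 and 7.28 in WT and 7.00, 6.92 and 6.95 in HDAC11-/-, a difference of -0.38 (SE 0.05, adjusted p = 0.00131), and no arrays overlapped. It was the lowest of the elongation factor genes, 5 of which had a value below 0 by the brightest probe set.

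Probe sets of the same gene did not always give the same answer. Of the 110 probe sets 55 were higher by the adjusted p (23.2% of all probe sets were) and 6 were lower (22.4% of all). None was called higher at 1.5-fold by limma or SAM, where limma called 3.87% of all probe sets, and at an unadjusted p under 0.05 limma had 61 higher and 10 lower. The 2 called lower, where 5.03% of all were, belong to Eif2s2 and Eef1akmt1, and neither is the brightest of its gene.

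The dimmest of the 6 Eif2s2 probe sets was at 6.68, 6.68 and 6.58 in WT and 5.40, 5.37 and 5.34 in HDAC11-/-, a difference of -1.27 (SE 0.05, adjusted p = 1.09e-05) or 2.42-fold lower. The other Eif2s2 probe sets lay between 0.02 and 0.32, and 3 of them passed as higher, while the mean of all 6 gave -0.06 (adjusted p = 0.361). In Eef1akmt1, a lysine methyltransferase of eEF1A, the dimmest of 4 probe sets was at 7.38, 7.51 and 7.27 against 6.40, 6.13 and 6.48 (-1.05, SE 0.11, adjusted p = 0.00048). The brightest probe set of that gene had -0.08 (adjusted p = 0.194) and another passed as higher, at 0.25. No probe positions were used here, so which transcript each probe set reads is not stated.

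**Figure D5:**
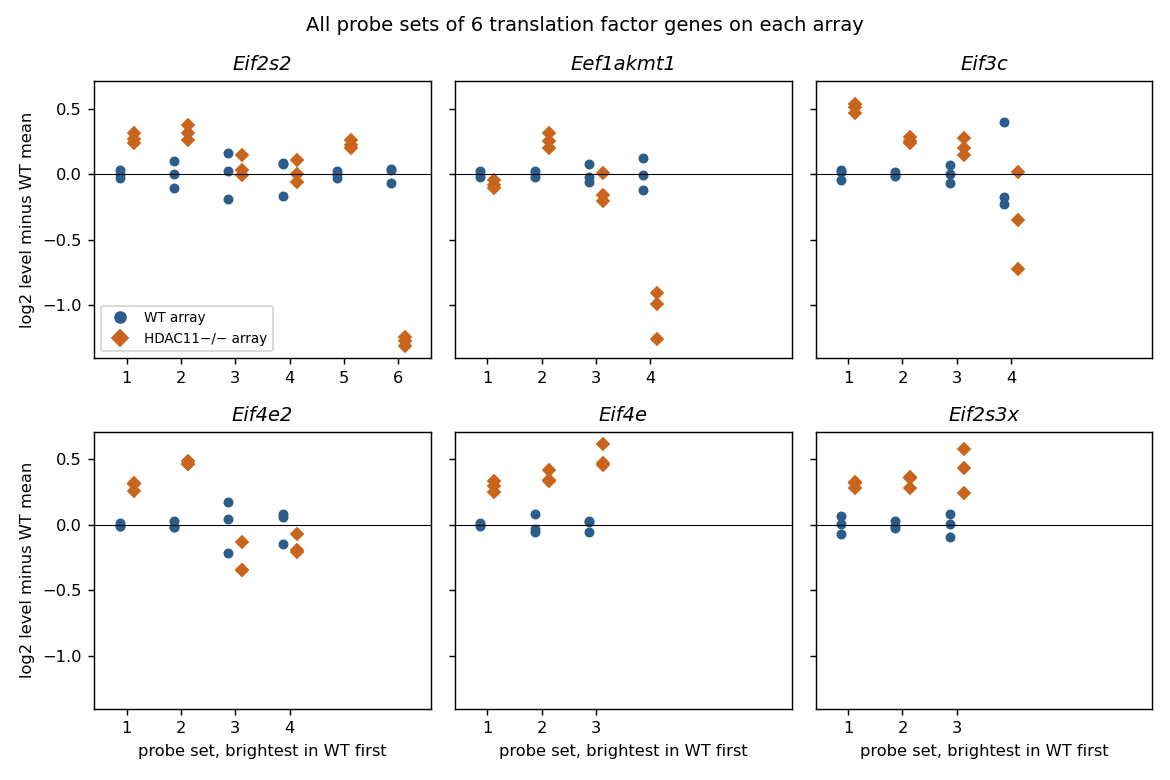
Log2 level minus the WT mean for every probe set of 6 genes on each array, ordered by WT level, with WT arrays as circles and HDAC11-/- arrays as diamonds. The probe sets of Eif4e and Eif2s3x lie above WT throughout, whereas the dimmest of Eif2s2 (-1.27) and Eef1akmt1 (-1.05) lie far below. The dimmest of Eif3c (-0.35) and the dimmest ones of Eif4e2 (-0.27 and -0.16) do not follow the brighter ones.

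Of the 27 genes with several probe sets, 6 had all of them higher by the adjusted p, 3 had probe sets passing in both directions and 10 had log2 fold changes that spanned over 0.5. The 3 with both directions were Eif2s2, Eif3l and Eef1akmt1. Counting any probe set, 34 of the 49 genes had a rise, 6 had a fall and 12 had neither. A gene with more probe sets has more ways to pass. These counts over the probe sets of a gene were not made for all genes, so they describe the members only. Of all 110, 7 probe sets did not exceed the highest bacterial control on any array and 2 exceeded it on some only, and the other 101 included 54 of the 55 rises and the 6 falls.

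Genes that work with these factors but fall outside the naming rule were counted by their brightest probe set. Of 20 partners and regulators of initiation, 8 were higher and 2 lower by the adjusted p, where 22.9% and 23.2% of all genes were, with a median log2 fold change of 0.09. None was called at 1.5-fold by limma or SAM (8 higher and 3 lower at an unadjusted p under 0.05 by limma), where limma called 3.46% of all genes higher and 3.72% lower. Denr, which re-initiates translation, was the highest at 0.50 (adjusted p = 0.0003), and the lower ones were Impact, an inhibitor of the GCN2 kinase pathway, at -0.48 (adjusted p = 0.000503) and Mknk1, a kinase of eIF4E, at -0.27 (adjusted p = 0.0157).

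Of 7 genes that set or read the phosphorylation of eIF2, 3 were higher and 1 lower, against the same shares of all genes, 22.9% and 23.2%. Ppp1r15a (GADD34), the inducible subunit of the eIF2 phosphatase, had a level of 8.12 ± 0.10 in WT and 11.68 ± 0.03 in HDAC11-/- (SD, n = 3 each), a limma difference of 3.57 (SE 0.06, adjusted p = 1.65e-06). Atf4, the transcription factor whose translation rises when eIF2 is phosphorylated, was 0.59 higher (SE 0.05, adjusted p = 0.000168), just past 1.5-fold. Ppp1r15a was known to be higher from earlier results of these data, and the list with Atf4 was made with those results known. The kinases Eif2ak3 (PERK) and Eif2ak2 (PKR) had 0.28 (adjusted p = 0.0043) and -0.44 (adjusted p = 0.0403).

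Of 14 partners of elongation, termination and recycling, 5 were higher and 3 lower, against 22.9% and 23.2% of all genes, with none called at 1.5-fold by limma or SAM (5 and 3 at an unadjusted p under 0.05 by limma). Both release factor genes Gspt1 (0.56, adjusted p = 0.000258) and Etf1 (0.48, adjusted p = 0.000407) rose, as did the ribosome rescue gene Pelo (0.55, adjusted p = 0.00203), while Hbs1l, its partner, fell (-0.41, adjusted p = 0.00117). Of 6 mitochondrial translation factors 3 were higher and 1 was lower, with a median of 0.09, beside those same shares of all genes.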

How the data were processed

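The authors hybridised biotin-labelled, amplified RNA to Mouse430A arrays, normalized them by robust multiarray average (RMA) in MAYDAY, and the deposited values are on the log2 scale. Raw probe values and detection calls were not used here. After leaving out 45 controls of 22671 probe sets, 22626 were tested. Of these, 20380 carried 1 symbol in the platform's annotation, 691 several and 1555 none, and 6 that name a member among several symbols were left out.

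All 22626 were tested by limma 3.58.1 (lmFit, then eBayes, under R 4.3.3) on genotype alone, with Benjamini-Hochberg adjustment, and the procedure was tested on simulated data. Following the methods, a gene was called at 1.5-fold with an adjusted p under 0.05. SAM with all 20 labelings, other scales and filters, a replicate block, other choices of probe set and fits without each array in turn were alternatives. A gene was its brightest probe set over the 6 arrays, and dim probe sets were not filtered. Precision is limited by having 3 arrays a genotype, whose log2 values had a median SD of 0.09 (WT) and 0.07 (HDAC11-/-). Promoters were RefSeq's (GRCm38.p6), matched by symbol, and figures used matplotlib 3.10.9.

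The members, lists and motifs were chosen with earlier results of these data known. Named genes were those with a called probe set, per group and direction up to 4 genes by rank of adjusted p, the brightest gene of each group, Eif2s3x, Eif2s3y and Hdac11. Other names, such as Eif4g2, Eif4a1, Eif2b2 and those of the partner lists, were added after their values were seen. Replicate numbers were not taken as pairs, since arrays of the same number did not deviate together in every pair (correlations of 0.23, -0.02 and 0.16). Among arrays of the other genotype, however, 4 of the 6 arrays correlated best with that of their own number. A shared effect of replicate number is thus possible, and the replicate block was run as an alternative.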

Additional observations from a re-analysis of the deposited data

How the results depend on the processing

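Leaving out each array in turn gave 22 to 26 member genes higher and 2 to 3 lower by the adjusted p (of all genes 18.3% to 21.5% and 18.1% to 21.8%), 0 called in either direction, and 2 probe sets called lower. It gave 1 probe set called higher without WT replicate 2 (Eef1d, 0.62) or without HDAC11-/- replicate 1 (Eif1ax, 0.60). The medians ranged from 0.17 to 0.19 for all members from 0.28 to 0.32 for eIF1 and from 0.024 to 0.060 for elongation factors. The replicate block gave 24 higher and 2 lower (of all genes 21% and 22.9%), SAM 20 and 2 (18% and 20.3%), array weights 28 and 3 (23.1% and 23.4%) with a member median of 0.17, and an adjusted p under 0.01 gave 21 and 2 (15.6% and 13.6%). An intensity trend with a robust prior, and also a filter on dim probe sets, gave 31 and 5 (of all genes 25.4% and 23.8%, and 34.4% and 28.7%). Scaling on reference genes gave 11 and 16, with 1 gene called lower, and medians of -0.027 for all members, 0.092 for eIF1, -0.050 for eIF2, -0.015 for eIF3, 0.029 for eIF4, 0.11 for eIF5 and eIF6 and -0.16 for elongation factors. Scaling on bacterial controls gave 29 and 2, with 1 probe set called higher (Eif1ax, 0.59), and medians of 0.20 for all members, 0.32 for eIF1, 0.21 for eIF3, 0.25 for eIF4 and 0.34 for eIF5 and eIF6. With the mean of a gene's probe sets, 25 were higher and 4 lower (of all genes 23% and 24.3%), with medians of 0.15 for all members, 0.38, 0.11, 0.15 and 0.15 for eIF1 to eIF4 and 0.34 for eIF5 and eIF6. Probe sets without a suffix for shared probes measured 37 genes, 19 higher and 3 lower (of all genes 21.9% and 22.8%), with medians of 0.16 for all members, 0.25 for eIF1, 0.21 for eIF2, 0.10 for eIF4 and 0.16 for eIF5 and eIF6. The direction turned for Eef1b2 (-0.027), Eif2b1 (-0.051) and Eif3e (-0.088) on the reference-gene scale, for Eif2s2 (-0.063) with the mean of its probe sets, for Eef1akmt1 (0.25), Eif3e (-0.29) and Eif4e2 (-0.275) on probe sets without a suffix, and for Eif2s3y (0.0013) without WT replicate 3, the values without each array in turn running from -0.15 to 0.0013. Of 443 values of 30 named genes under 15 settings, 390 kept direction and side of the threshold, 36 no longer passed, 9 newly passed and 8 turned. The reference genes and a member gene can each move with genotype, and the deposited values do not settle which scale holds. The ratio of 3' to 5' probe signal of actin was 0.47 to 0.53 on the log2 scale in WT and 0.42 to 0.44 in HDAC11-/-, that of Gapdh was 0.088 to 0.095 and -0.001 to 0.037, and their part in the results was not tested.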
